A study of Mus musculus with 6 samples.

Results

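The genes described here are 7 genes of the squamous and cornified-envelope programme, Sprr1a, Sprr2a3, Sprr2f, Ivl, Krt23, Tgm1 and Nccrp1, measured in single cells of the mouse bladder. They were chosen by name, matched by Ensembl identifier in all 6 count tables, and are 7 of the 14338 genes that every table lists once mitochondrial and ribosomal genes are set aside. Each library came from the mucosal layer of bladders of wild type C57BL/6 mice of 8 weeks, without transgene or deletion in any group. The healthy group had 2 libraries without treatment, the acute group 2 libraries taken 48 hours after CPP (cyclophosphamide, a drug whose metabolites injure the bladder lining), and the chronic group 2 libraries taken on day 11 of 4 rounds of CPP. The study's methods describe the libraries of a condition as biological replicates, with several mice a condition and both sexes in each group, and do not say which animals entered which library. They also describe processing and sequencing in batches without naming the batch of each sample, so batch and condition cannot be told apart here. The p-values given here rest on the spread between these libraries, which the fits draw toward the spread of all genes. The SE of a member can therefore be smaller than its own spread between libraries would give. With 2 libraries a group, an exact permutation test of a single value cannot go below p = 0.333, and the tests below come from fits over all genes.

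The cornified envelope is the sheet of cross-linked protein that replaces the plasma membrane in the outermost cells of the skin and of other stratified squamous epithelia. Involucrin (Ivl) forms an early scaffold under the membrane, the small proline-rich proteins (Sprr) act as cross-bridging precursors, and transglutaminase 1 (Tgm1) is the enzyme that joins them. Krt23 is an acidic keratin, a subunit of intermediate filaments, and Nccrp1 encodes a protein of the F-box family. The urothelium is not a squamous epithelium. Its basal cells lie on the basement membrane, intermediate cells lie above them, and superficial (umbrella) cells face the urine and carry uroplakin plaques in place of a cornified envelope.

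Of the members, 4 lie together on mouse chromosome 3 in the epidermal differentiation complex, the cluster that holds many genes of this envelope (GRCm38, GENCODE vM21). Sprr2a3 (ENSMUSG00000074445) spans bases 92285417 to 92291405 on the plus strand and Sprr2f (ENSMUSG00000050635) bases 92365187 to 92366442 on the plus strand. On the minus strand follow Sprr1a (ENSMUSG00000050359), at 92483952 to 92485895, and Ivl (ENSMUSG00000049128), at 92570902 to 92573735. The other three are alone on their chromosomes. Nccrp1 (ENSMUSG00000047586) lies at 28543596 to 28547254 of chromosome 7, Krt23 (ENSMUSG00000006777) at 99477974 to 99493137 of chromosome 11, and Tgm1 (ENSMUSG00000022218) at 55700009 to 55713926 of chromosome 14, all on the minus strand.

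Sprr2a3 and Sprr2f are paralogs that peaked in different layers of the urothelium, and their coding sequences are shown so that the 2 genes can be compared. Capitals mark the bases that differ, or have no partner, in a global alignment of the pair.
Sprr2a3: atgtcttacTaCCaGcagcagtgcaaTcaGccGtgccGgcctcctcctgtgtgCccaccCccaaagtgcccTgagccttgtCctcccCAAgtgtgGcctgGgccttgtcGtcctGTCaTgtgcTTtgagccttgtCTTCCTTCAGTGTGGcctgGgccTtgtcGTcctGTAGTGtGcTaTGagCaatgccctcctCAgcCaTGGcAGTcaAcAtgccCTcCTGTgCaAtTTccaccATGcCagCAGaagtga
Sprr2f: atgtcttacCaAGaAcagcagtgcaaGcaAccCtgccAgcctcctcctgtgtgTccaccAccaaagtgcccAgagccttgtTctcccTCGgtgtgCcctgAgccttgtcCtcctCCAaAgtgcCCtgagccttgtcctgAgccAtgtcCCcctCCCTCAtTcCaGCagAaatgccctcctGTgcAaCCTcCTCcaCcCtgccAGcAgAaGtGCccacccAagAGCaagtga
The 2 coding sequences, of 252 and 231 bases, were identical at 170 of 252 aligned columns (67.5%). Sprr2a3 was far closer to Sprr2a1 and Sprr2a2, which are not among the members, with 249 of 252 bases identical to either (98.8%). Of the different 90-base stretches in the last 500 bases of the Sprr2a3 transcripts, 42.3% also occurred in a transcript of Sprr2a1 or Sprr2a2, against 0% for each of the other 6 members. For Sprr2a1 and Sprr2a2 themselves, 100% occurred in a transcript of another Sprr2a gene. Whether reads from shared stretches were lost or given to 1 of these genes was not tested, and the level of Sprr2a3 is uncertain in that respect.

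The 250 bases before the RefSeq start of the 4 genes of the complex (GRCm38.p6) are shown next, because these neighbours differ in the layer where they are highest. Capitals mark matches to the AP-1 motif TGANTCA, searched on both strands, and each sequence reads 5′ to 3′ on the strand of its gene.
Sprr1a (chr3:92485882-92486131, minus strand): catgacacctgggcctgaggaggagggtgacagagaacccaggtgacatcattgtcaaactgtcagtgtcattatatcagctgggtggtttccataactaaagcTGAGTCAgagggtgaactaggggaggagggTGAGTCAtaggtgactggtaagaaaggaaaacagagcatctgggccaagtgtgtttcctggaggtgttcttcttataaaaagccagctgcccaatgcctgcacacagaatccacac
Sprr2a3 (chr3:92285054-92285303, plus strand): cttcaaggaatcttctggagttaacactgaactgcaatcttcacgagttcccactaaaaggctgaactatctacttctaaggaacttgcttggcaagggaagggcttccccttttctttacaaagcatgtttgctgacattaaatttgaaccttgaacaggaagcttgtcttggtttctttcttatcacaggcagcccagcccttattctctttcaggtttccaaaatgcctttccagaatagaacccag
Sprr2f (chr3:92364937-92365186, plus strand): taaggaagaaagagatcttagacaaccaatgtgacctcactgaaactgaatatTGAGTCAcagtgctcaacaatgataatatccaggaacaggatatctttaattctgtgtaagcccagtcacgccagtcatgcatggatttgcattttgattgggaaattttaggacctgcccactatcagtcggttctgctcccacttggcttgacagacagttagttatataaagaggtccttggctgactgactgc
Ivl (chr3:92573736-92573985, minus strand): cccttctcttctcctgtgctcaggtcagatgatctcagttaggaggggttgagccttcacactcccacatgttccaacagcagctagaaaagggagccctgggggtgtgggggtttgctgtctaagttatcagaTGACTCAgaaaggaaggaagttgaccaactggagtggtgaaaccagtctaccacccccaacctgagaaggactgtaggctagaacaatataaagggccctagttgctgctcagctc
Sprr1a held 2 matches, 146 and 116 bases before its start, Sprr2f held 1, 197 bases before its start, and Ivl held 1, 116 bases before its start. Sprr2a3 held none in this window, and neither did the windows of Krt23 and Tgm1. Of 27025 mouse promoters of this length, 6.87% held a match. Of the other motifs searched, the KLF letters GGGNGTG occurred 4 times before Ivl (26.0% of promoters held a match), the ETS letters GGAAGT once before Ivl (19.985%), and the interferon-stimulated response element once before Tgm1 (3.04%), while the grainyhead-like letters AACCNGTT occurred before none of the 6 members searched (1.71%). A match of letters is a description of the sequence and not a bound site.

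The 6 libraries held 54604109 to 111985678 UMIs (unique molecular identifiers, each counting 1 captured RNA molecule) in 5348 to 15062 cell barcodes, with a median of 5530 to 9138 UMIs a cell. Library pairs shared at most 2.28% of the barcodes of the smaller one. After called doublets and a doublet cluster were set aside, 4745 to 8600 urothelial cells a library remained, and the members' levels are UMIs summed over the cells of a class in a library, scaled to counts per 1e6 UMIs of that sum (CPM). Basal cells were set by each cell's own marker scores. Superficial cells were set by the markers of clusters made without the members or any gene of the cornified-envelope lists, and the rest were intermediate. The layers held 175 to 1206 basal, 3107 to 6817 intermediate and 170 to 712 superficial non-cycling cells a library, and 2.06% to 8.62% of the cells lay close to the line between basal and the other layers. The 6 basal markers (Krt5, Krt14 and others) summed to 5375 to 9243 CPM in basal, 2426 to 4048 CPM in intermediate and 337 to 858 CPM in superficial cells, and the 6 superficial markers (Krt20, uroplakins and others) to 1496 to 3216, 5718 to 9927 and 16215 to 23832 CPM. Cell types were rebuilt from marker genes, and each name stands for cells like that type. Clustered without integration of the libraries, the urothelial cells fell largely by library (5577 of the 5626 cells of the largest cluster came from chronic replicate 1). The line between superficial and intermediate cells used here comes from the integrated clusters, and the basal cells are the same under both. Without integration the superficial cells went from 195 to 28 in healthy replicate 1, from 421 to 137 in acute replicate 1 and from 541 to 633 in acute replicate 2. Mesenchymal cells of the same libraries, a type not known to make a cornified envelope, served as the background, and the source of their UMIs of the members was not tested.

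**Figure D1:**
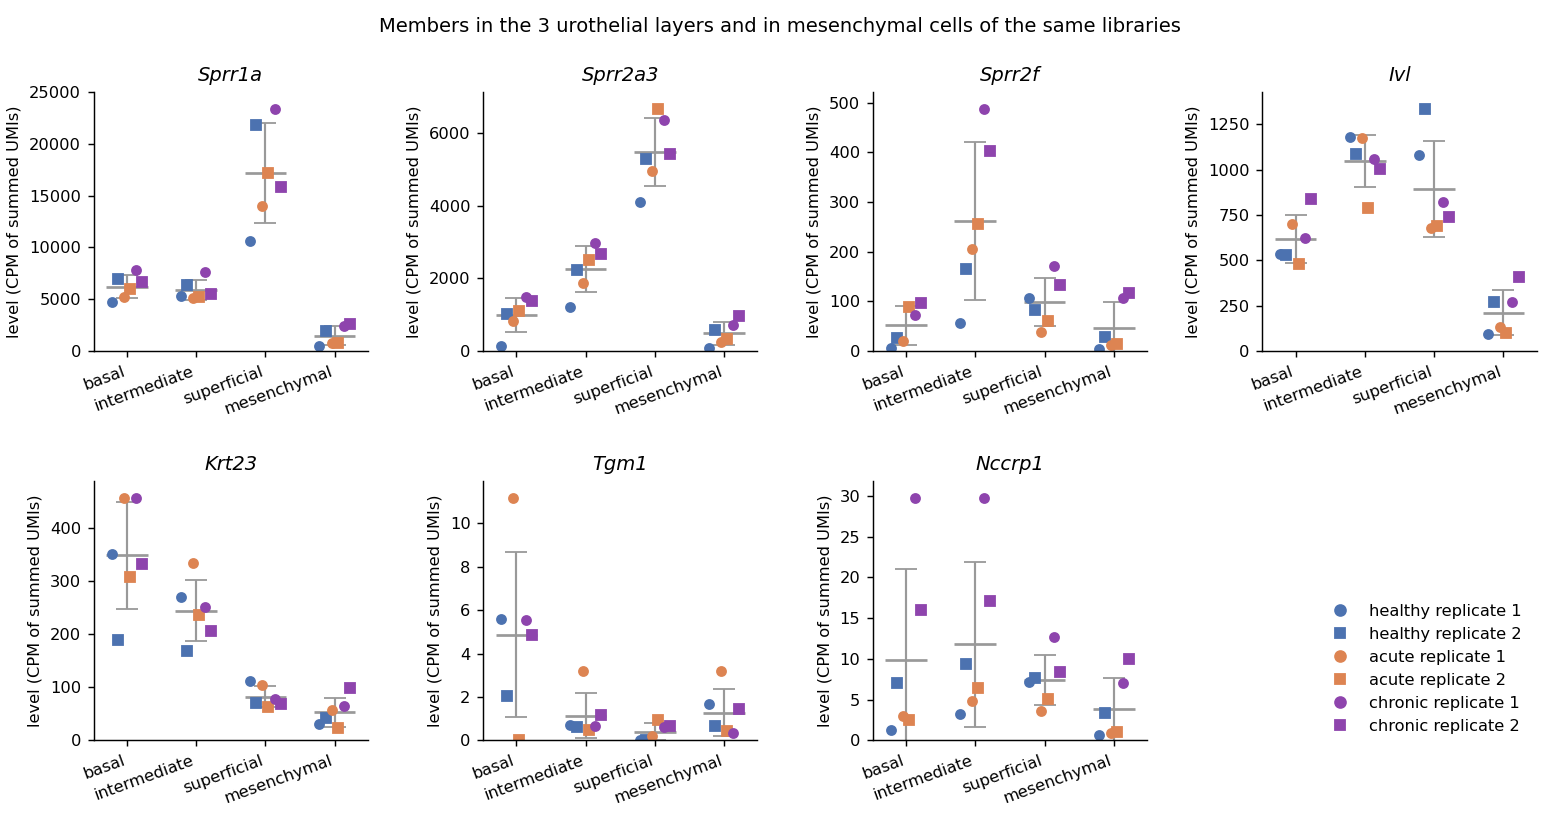
Level of each member (CPM of summed UMIs, y axis from 0) in basal, intermediate, superficial and mesenchymal cells, 1 point a library (colour, condition; shape, replicate), with the mean of the 6 libraries as a line and the SD as bars. Sprr1a and Sprr2a3 stood highest in superficial cells in every library, Sprr2f in intermediate cells in 5 of 6, and Krt23 in basal cells in all 6.

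The layers separated the members into different patterns rather than 1 programme. Sprr1a and Sprr2a3 were highest in superficial cells, Sprr2f and Ivl had their highest mean in intermediate cells, and Krt23 and Tgm1 were highest in basal cells. In the step from basal to intermediate cells, 6 of 7 members passed edgeR's quasi-likelihood test (Benjamini-Hochberg adjusted p below 0.05, library as a block, n = 6 libraries), 4 higher and 2 lower. Of all 12857 genes tested, 42.0% passed, 20.9% higher and 21.1% lower. In the step from intermediate to superficial cells, 5 members passed, 2 higher and 3 lower, against 52.4% of 12776 genes (24.4% and 28.0%). Between superficial and basal cells, 6 passed, 4 higher and 2 lower, against 59.0% of 11505 genes (29.6% and 29.4%). With so large a share of all genes called, the number of members called is no result about them, and what follows gives the size and direction for each.

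Sprr1a, a cross-bridging precursor, was found in nearly every urothelial cell. Its level was lowest 4771, median 6345 and highest 7784 CPM in basal cells, 5156, 5408 and 7596 CPM in intermediate cells, and 10604, 16512 and 23397 CPM in superficial cells. No superficial value overlapped those of the other layers. Superficial cells exceeded intermediate cells by 1.58 ± 0.09 on the log2 scale (SE; 2.99-fold, edgeR adjusted p = 6.4e-12), and did so in 6 of 6 libraries. Between intermediate and basal cells the log2 difference was 0.01 ± 0.05 (95% interval -0.08 to 0.10, edgeR adjusted p = 0.92), and it changed sign under several settings. These sizes hold for the layers as set here, with basal cells set cell by cell and superficial cells by clusters. With every layer set by each cell's own marker scores, 1942 to 3585 cells a library were basal. The differences were then 0.36 between intermediate and basal cells (edgeR adjusted p = 1.8e-05) and 0.46 between superficial and intermediate cells (edgeR adjusted p = 5.9e-08).

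Sprr2a3 climbed at both steps. In basal cells it was at 149 and 1017 CPM in the healthy libraries, 827 and 1099.8 in the acute and 1486 and 1374 in the chronic ones. In intermediate cells the values were 1225 and 2236, 1865 and 2503, and 2980.4 and 2672 CPM, and in superficial cells 4107 and 5293, 4963 and 6668, and 6340.4 and 5431 CPM. The basal value of healthy replicate 1 was the lowest, and the superficial values lay above all values of the other layers. Intermediate cells exceeded basal cells by 1.45 ± 0.15 (log2, SE; 2.74-fold, edgeR adjusted p = 1.2e-08), and superficial cells exceeded intermediate cells by 1.39 ± 0.09 (2.61-fold, edgeR adjusted p = 3.4e-11), each in 6 of 6 libraries. From basal to superficial cells the difference came to 2.86 ± 0.24, a 7.28-fold difference. With each cell assigned by its own marker scores it was 1.39, and the superficial against intermediate step 0.31 (edgeR adjusted p = 1.3e-07).

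Sprr2f was the member most concentrated in intermediate cells. Its intermediate level was 55.9 and 164 CPM in the healthy libraries, 205 and 256 in the acute and 488 and 402 in the chronic ones. In basal cells it was 6.85 and 25.6, 19.4 and 88.6, and 72.4 and 97.5 CPM, and in superficial cells 108 and 83.1, 38.9 and 61.1, and 171 and 134 CPM. Within a library the intermediate level exceeded the basal level in 6 of 6, by 2.43 ± 0.13 (log2, SE; 5.39-fold, edgeR adjusted p = 1.9e-13). The superficial level lay below the intermediate level in 5 of 6 libraries, by 1.27 on the log2 scale in the fit (-1.27 ± 0.25, 0.415 times, edgeR adjusted p = 2.3e-04), and healthy replicate 1 was the exception, with superficial cells higher by 0.94. That library had 195 superficial cells, and 28 when clustered without integration. Superficial cells stood above basal cells by 1.25 ± 0.31 (2.37-fold, edgeR adjusted p = 0.0017) in 5 of 6 libraries, with acute replicate 2 the other way (-0.53), and the call was lost without the library block (edgeR adjusted p = 0.074). The size of the drop at the surface depended on where the surface begins: it was -0.52 with the next sub-cluster down counted as superficial, and -0.18 with each cell assigned by its own marker scores, both with edgeR adjusted p below 0.05.

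Ivl, the scaffold, was found in every layer. Its level was lowest 480.3, median 579 and highest 836 CPM in basal cells, 790.1, 1070.4 and 1177 CPM in intermediate cells, and 679, 780.1 and 1336 CPM in superficial cells, so that the ranges of all layers overlapped. Within libraries intermediate cells were higher than basal cells in 6 of 6, by 0.87 ± 0.07 (log2, SE; 1.82-fold, edgeR adjusted p = 1.4e-10). Superficial cells exceeded basal cells by 0.69 ± 0.15 (1.61-fold, edgeR adjusted p = 5.2e-04) but in 4 of 6 libraries by direct ratio, and differed from intermediate cells by -0.21 ± 0.10 (95% interval -0.40 to -0.01, edgeR adjusted p = 0.083), which did not pass. Of the 2 steps, the one from basal to intermediate cells was the one that passed.

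Krt23 ran the other way from Sprr1a. Its level was lowest 189.6, median 342 and highest 456 CPM in basal cells, 168, 244 and 334 CPM in intermediate cells, and 63.2, 74.2 and 111 CPM in superficial cells. The superficial values lay below every value of the other layers. Intermediate cells were below basal cells (-0.38 ± 0.06 on the log2 scale, SE; 0.766 times, edgeR adjusted p = 6.4e-06, but 0.19 without the library block), and superficial cells were below intermediate cells (-1.52 ± 0.09, 0.348 times, edgeR adjusted p = 9.1e-12), each in 6 of 6 libraries. With each cell assigned by its own marker scores the superficial step was -0.18 (edgeR adjusted p = 0.018).

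Tgm1, the cross-linking enzyme, was close to the limit of detection. Its sums in basal cells were 18 and 9 UMIs in the healthy libraries, 34 and 0 in the acute and 3 and 10 in the chronic ones, and in superficial cells 0 and 0, 1 and 5, and 3 and 3 UMIs. The basal level was lowest 0, median 5.21 and highest 11.2 CPM, the intermediate level 0.463, 0.693 and 3.19 CPM, and the superficial level 0, 0.414 and 0.945 CPM. A sum of 0 allows up to 0.739 CPM in the basal cells of acute replicate 2, and up to 1.34 and 2.09 CPM in the superficial cells of the healthy libraries (3 counts a library, counting error alone). On these counts basal cells stood above intermediate cells (-1.89 ± 0.31 for intermediate against basal, log2 and SE, 0.270 times, edgeR adjusted p = 2.2e-05, but 0.060 without the library block) and above superficial cells (-2.93 ± 0.64, edgeR adjusted p = 5.6e-04). Acute replicate 2 ran against this order, with no Tgm1 UMI in its basal cells. Mesenchymal cells had 0.323 to 3.21 CPM of Tgm1. Basal cells stood above that reference in 5 of 6 libraries, but intermediate and superficial cells in 2 of 6 each, and Tgm1 in the upper layers is read as background.

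Nccrp1 was low in every layer and moved more between libraries than between layers. In intermediate cells its level was 3.27 and 9.33 CPM in the healthy libraries, 4.85 and 6.396 in the acute and 29.8 and 17.1 in the chronic ones. Basal cells had 1.25 and 7.02, 2.96 and 2.46, and 29.7 and 16.01 CPM, and superficial cells 7.16 and 7.68, 3.60 and 5.11, and 12.6 and 8.42 CPM. Within libraries intermediate cells were above basal cells in 6 of 6 (0.57 ± 0.16 on the log2 scale, SE; 1.49-fold, edgeR adjusted p = 0.0062, but 0.51 without the library block). Superficial cells were below intermediate cells (-0.63 ± 0.20, 0.647 times, edgeR adjusted p = 0.011) in 5 of 6 libraries, a call that was lost without either chronic library, with DESeq2, with the wider surface and without the library block. Without chronic replicate 1 the value was -0.29 and without chronic replicate 2 it was -0.49 (edgeR adjusted p = 0.29 and 0.089). Superficial and basal cells differed by 0.17 ± 0.33 (95% interval -0.47 to 0.81, edgeR adjusted p = 0.68).

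**Figure D2:**
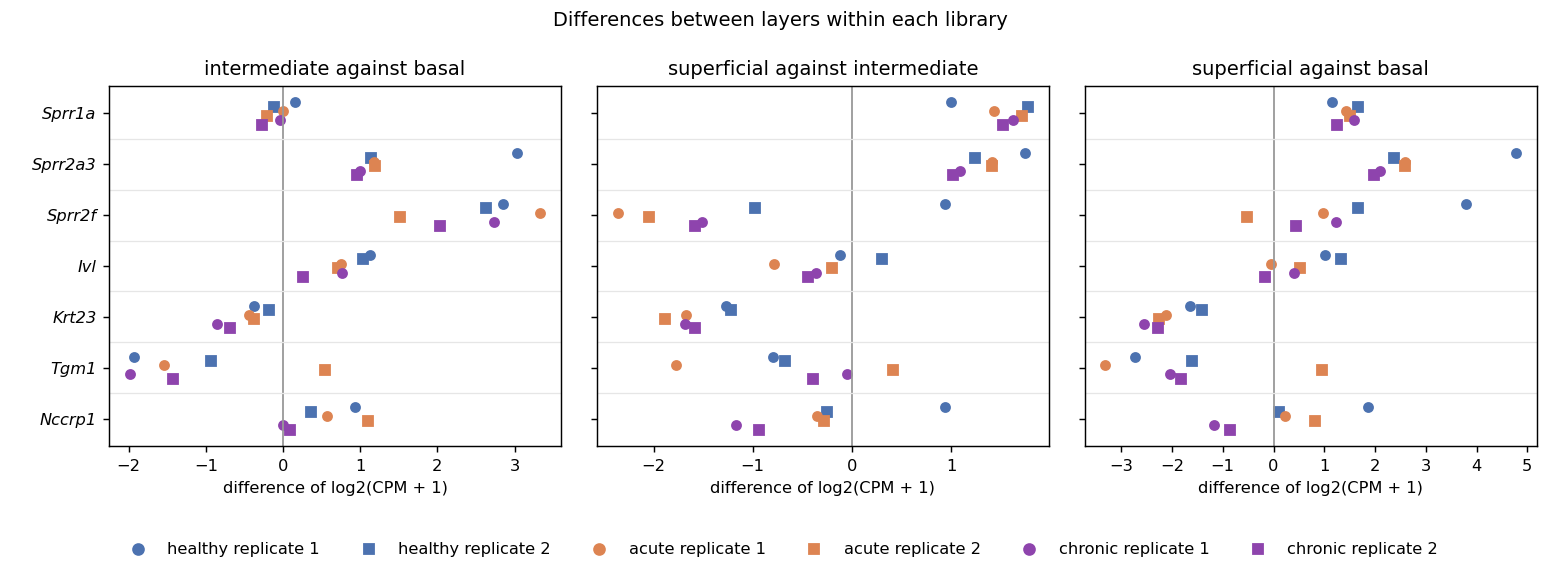
Difference of log2(CPM + 1) between a pair of layers within each library (x axis), for the 7 members (y axis), 1 point a library, with the line at 0 marking no difference. Sprr1a and Sprr2a3 lie right of 0 and Krt23 left of 0 in all 6 libraries for superficial against intermediate cells, and the points of Sprr2f run from 0.94 in healthy replicate 1 to -2.36 in acute replicate 1.

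The shape of the pattern across the 18 sums (3 layers in 6 libraries) set the members side by side with other genes of at least 20 CPM. This is a description over points that share libraries and depth. By Pearson correlation of log2(CPM + 1), Sprr1a was most like S100a1 (r = 0.98), Lyrm5 and Ncf1 (both 0.97), and Sprr2a3 most like Psca (0.95), which encodes prostate stem cell antigen, then Bnipl and Cysrt1 (both 0.94). Sprr2f was most like Ttc36 (0.92), Coq9 (0.85) and Tmem154 (0.84), and Tmem154 (0.85) and Tmprss4 (0.84) were among the genes most like Ivl. Krt23 was most like Skil (0.97), Bcl10 (0.96) and Bcas2 (0.96), Tgm1 most like Vasp (0.89), Cdc42bpg (0.88) and Entpd7 (0.86), and Nccrp1 most like Gss (0.92), which encodes glutathione synthetase, Atp5b (0.88) and Proser2 (0.85). None of these neighbours is an envelope gene of the lists used here. Among the members themselves, Sprr1a and Sprr2a3 ran together over these sums (r = 0.76) and both ran against Krt23 (-0.88 and -0.78). Sprr1a and Sprr2f were close to unrelated (0.09). The r over single cells within each layer of each library was smaller and of mixed sign. Sprr1a with Krt23 had 0.04 to 0.14 in intermediate, -0.16 to 0.18 in basal and -0.17 to 0.07 in superficial cells. Sprr1a with Sprr2a3 had -0.08 to 0.12, -0.22 to 0.09 and 0.10 to 0.34 in these layers. Sprr2a3 with Krt23 had -0.09 to -0.02, -0.08 to 0.04 and -0.06 to 0.08. The sums thus describe layers and libraries, not the cells within a layer.

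**Figure D3:**
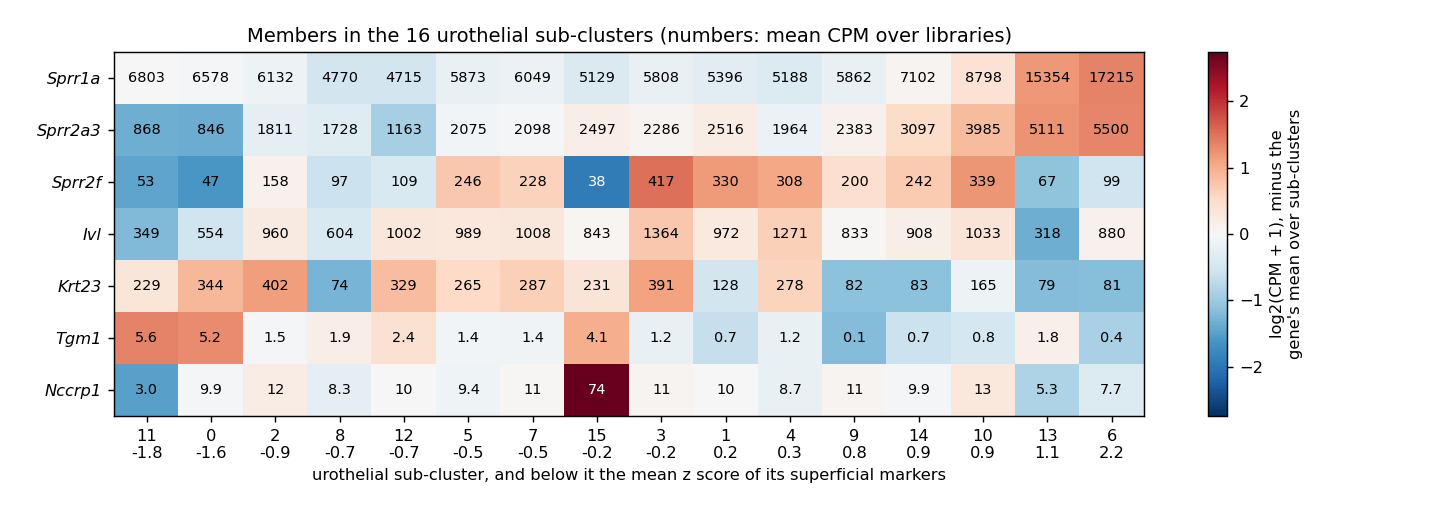
Members in the 16 urothelial sub-clusters, ordered from left to right by the mean z score of their superficial markers (number under each sub-cluster). Colour is log2(CPM + 1) minus the gene's mean over sub-clusters and the printed number is the mean CPM over libraries. Nccrp1 stands out in sub-cluster 15 at 74.3 CPM.

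Within the layers the members marked different sub-clusters. Sprr1a and Sprr2a3 were highest in sub-cluster 6, the superficial one (17215 and 5500.4 CPM, mean over libraries), and next in sub-cluster 13, whose cells were 96.9% cycling and which carried superficial markers (15354 and 5111 CPM over the 4 acute and chronic libraries). Sprr2f had its highest mean in sub-cluster 3 (417 CPM), led by Areg, which encodes amphiregulin. In single libraries, sub-cluster 10 was higher in chronic replicate 1 (811 against 649 CPM) and sub-cluster 6 in healthy replicate 1 (107 against 104 CPM). Sub-cluster 3 also had the highest mean of Ivl (1364 CPM) and held Krt23 at 391 CPM. Sprr2f, Ivl and Krt23 thus met in 1 intermediate sub-cluster although their layer patterns differed. Krt23 itself had similar means in sub-clusters 2 and 3 (402 and 391 CPM), with no clear peak between them. Tgm1 had its highest means in the cycling sub-cluster 11 (5.59 CPM) and the mostly basal sub-cluster 0 (5.25 CPM). In sub-cluster 11 its values ran from 0 in chronic replicate 2 to 12.1 CPM in acute replicate 1. Outside acute replicate 1 they rest on few UMIs.

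Nccrp1 had its highest mean in sub-cluster 15, led by the keratin gene Krt4 and by Gsdmc2, a gasdermin gene. Its level there was 32.8 and 78.3 CPM in the healthy libraries, 39.2 and 9.48 in the acute and 169.9 and 116 in the chronic ones, with a mean of 74.3 CPM against 2.98 to 12.7 CPM in the other 15 sub-clusters. Sprr2f had its lowest mean in this same sub-cluster, at 37.6 CPM. In healthy replicate 1, acute replicate 1 and chronic replicate 2 another sub-cluster was lower. The healthy and acute values (9.39 to 21.9 CPM) came from sums of 91444 to 319466 UMIs and rest on few UMIs of Sprr2f. Its chronic values there count as background, as given below. Of the 741 non-doublet cells of sub-cluster 15, chronic replicate 1 gave 519, so that this library weighs most in any pooled value. The healthy libraries gave 22 and 90 cells, the acute ones 43 and 25 and chronic replicate 2 gave 42, so these values rest on few cells. Clustered without integration, the cluster led by Krt4 had 663 of its 669 cells from chronic replicate 1. In all 15 sub-clusters that held every library, this one among them, both chronic values of Nccrp1 lay above both healthy ones. In sub-cluster 11 the chronic values (5.61 and 6.60 CPM) lay below those of mesenchymal cells in the same libraries (7.10 and 10.001 CPM), as did that of chronic replicate 2 in sub-cluster 6 (8.28 CPM), and these count as background.

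**Figure D4:**
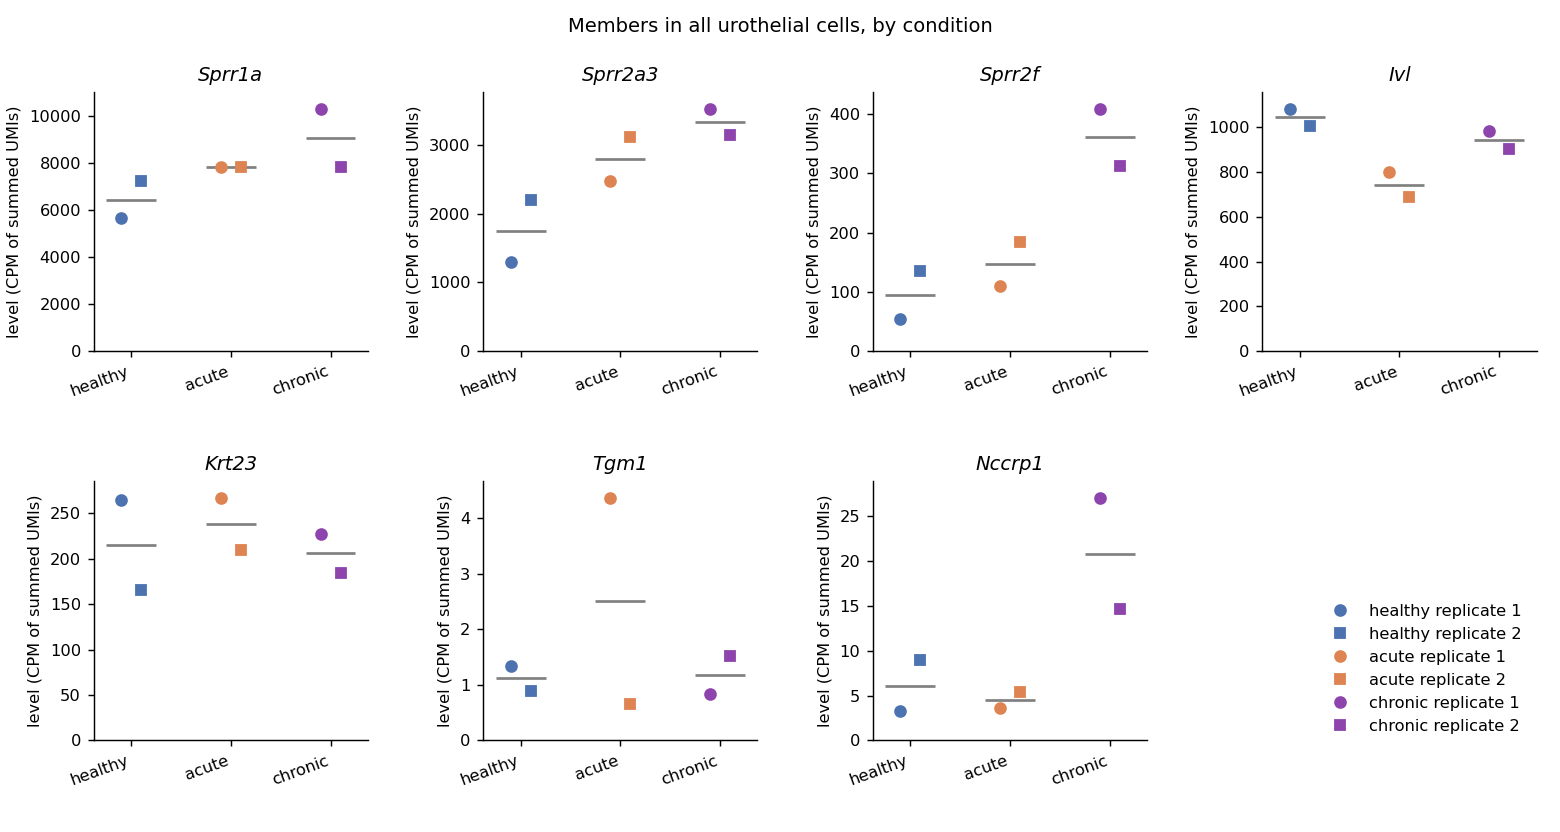
Level of each member over all urothelial cells (CPM of summed UMIs, y axis from 0) in the healthy, acute and chronic groups, 1 point a library and the group mean as a line. Sprr2f and Nccrp1 are highest in both chronic libraries, and Krt23 and Tgm1 overlap between groups.

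The comparison of conditions asks how the members stood after acute and after chronic injury. Sprr2f was at 53.4 and 136 CPM over all urothelial cells in the healthy libraries, 111 and 185 in the acute and 409 and 313 in the chronic ones. Its chronic values lay above all others, a log2 difference of 1.95 ± 0.49 from healthy (SE; 3.86-fold, 95% interval 0.99 to 2.91, edgeR adjusted p = 0.55). The difference was 1.42 without healthy replicate 1 and 2.81 without healthy replicate 2. This was the smallest unadjusted p of the members against healthy and did not pass over all genes, while DESeq2 called it (adjusted p = 0.0056). Mesenchymal cells moved in the same direction, with Sprr2f at 4.42 and 27.6 CPM in the healthy libraries, 11.4 and 15.1 in the acute and 107 and 117 in the chronic ones. The part of free RNA in the difference was not tested. The intermediate level stood 3.43 to 17.9 times above the mesenchymal level in the same library, and the lowest of these ratios were those of both chronic libraries.

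Sprr2a3 showed the same order with smaller steps. Its levels were 1298 and 2195 CPM in the healthy, 2476 and 3121 in the acute and 3531 and 3148 in the chronic libraries. Both injured groups lay above both healthy libraries, with log2 differences from healthy of 0.70 ± 0.30 for acute (1.62-fold, edgeR adjusted p = 0.79) and 0.95 ± 0.30 for chronic (1.94-fold, edgeR adjusted p = 0.58). Over the alternatives these ran from 0.35 to 1.125 and from 0.61 to 1.41. Sprr1a was at 5653 and 7245, 7817 and 7833, and 10324 and 7845 CPM. It too lay above both healthy libraries in the 4 injured ones, by 0.29 ± 0.24 and 0.52 ± 0.24 (edgeR adjusted p = 0.99 and 0.68). For Sprr1a the alternatives gave 0.10 to 0.48 and 0.26 to 0.74. Superficial cells, where both genes are highest, made up 2.53% and 3.54% of the urothelial cells in the healthy libraries, 7.29% and 9.27% in the acute and 8.28% and 9.67% in the chronic ones. Mesenchymal cells held 445 and 1901.5 CPM of Sprr1a in the healthy, 828 and 756 in the acute and 2383 and 2576 in the chronic libraries, and 82.2 and 592, 256 and 334, and 708 and 956 CPM of Sprr2a3, so that for both genes the chronic values there too lay above the healthy ones. The part of the mix of layers and of free RNA in these differences was not tested. Within superficial cells the chronic difference was 0.22 ± 0.39 for Sprr1a and 0.29 ± 0.28 for Sprr2a3, and within intermediate cells 0.20 ± 0.24 and 0.73 ± 0.33. The acute difference was -0.06 ± 0.39 and 0.31 ± 0.28 within superficial, -0.13 ± 0.24 and 0.38 ± 0.33 within intermediate and -0.02 ± 0.29 and 0.76 ± 0.68 within basal cells. In intermediate cells both acute values of Sprr1a lay below both healthy ones.

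Nccrp1 was at 3.29 and 8.93 CPM in the healthy, 3.64 and 5.43 in the acute and 27.0 and 14.6 in the chronic libraries, both chronic values above all others. Mesenchymal Nccrp1 moved the same way, with 0.65 and 3.31 CPM in the healthy, 0.916 and 1.03 in the acute and 7.10 and 10.001 CPM in the chronic libraries, and the part of free RNA was not tested. The chronic level exceeded the healthy one by 1.79 ± 0.55 (log2, SE; 3.46-fold, edgeR adjusted p = 0.58; 1.23 without healthy replicate 1 or chronic replicate 1, 2.72 without healthy replicate 2), and the acute level lay below the chronic one by a log2 difference of -2.20 ± 0.55 (0.217 times, edgeR adjusted p = 0.70). DESeq2 called the acute against chronic difference (adjusted p = 0.017). Ivl was lower in injury, with 1083 and 1003 CPM in healthy, 801 and 686 in acute and 984 and 904 CPM in chronic libraries, without overlap with the healthy values, by -0.48 ± 0.18 and -0.12 ± 0.18 on the log2 scale (edgeR adjusted p = 0.65 and 0.91). Neither difference passed the test. Cycling cells numbered 255 and 388 in the healthy and 1491 and 679 in the acute libraries, and the part of the cell mix was not tested. Within non-cycling cells the acute difference of Ivl was 0.18 ± 0.25 in basal, -0.18 ± 0.21 in intermediate and -0.82 ± 0.23 in superficial cells. Krt23 (265 and 166, 267 and 209, and 227 and 185 CPM) and Tgm1 (1.34 and 0.893, 4.36 and 0.650, and 0.843 and 1.53 CPM) overlapped between healthy and both injured groups.

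None of the 7 members passed edgeR's test over all urothelial cells in any pair of conditions, where 0.00724% of the 13812 genes passed for acute against healthy and 0% for the other pairs. At an unadjusted p below 0.05 the count of members was 1 for acute against healthy (Ivl), 3 for chronic against healthy (Sprr2f, Nccrp1 and Sprr2a3) and 2 for acute against chronic (Nccrp1 and Sprr2f), against 6.48%, 7.36% and 6.52% of all genes. With DESeq2 the counts of called members were 0, 1 and 1, against 1.92%, 0.928% and 0.439% of all genes. In data simulated at this size, without batch effects and with changed genes picked over all levels, edgeR recovered 10% of genes changed 2-fold and 71% of genes changed 4-fold between chronic and healthy libraries.

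By ranks alone, the libraries of the groups did not overlap for 3 of 7 members in acute against healthy (2 higher and 1 lower, against 32.9% of all genes at a mean of at least 1 CPM, 16.7% higher and 16.3% lower) and for 5 of 7 in chronic against healthy (4 higher and 1 lower, against 37.3% of genes, 17.1% and 20.2%). The chronic count holds Sprr1a, Sprr2a3, Sprr2f and Nccrp1 as higher and Ivl as lower. For acute against chronic the count was 5 of 7, all lower in acute (32.0% of genes, 17.8% higher and 14.2% lower). With 7 genes, these counts are given beside the background and nothing is read from them about the group as a whole.

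Within single layers the same count was made. In basal cells it was 0 of 7 for acute against healthy (27.4% of genes, 12.1% higher and 15.2% lower) and 4 for chronic against healthy, all higher (30.9% of genes, 14.5% higher and 16.4% lower), of which Sprr2f lay below the mesenchymal level in both chronic libraries and counts as background, leaving 3. In intermediate cells it was 2 for acute, 1 on each side (24.9% of genes, 10.8% and 14.1%), and 4 for chronic, 3 higher and 1 lower (32.4% of genes, 13.9% and 18.4%). In superficial cells it was 4 for acute, 1 higher and 3 lower (29.8% of genes, 15.5% and 14.3%), and 5 for chronic, 4 higher and 1 lower (30.9% of genes, 17.8% and 13.1%). Of the higher members, 1 in each is Tgm1, which had 0 UMIs in both healthy libraries and 1 to 5 in the injured ones, under what a count of 0 allows there, so that nothing is read from it. Without it the counts are 3 for acute, all lower, and 4 for chronic, 3 higher and 1 lower. Of these, the acute difference of Sprr2f (-0.91) changed sign without integration (0.25), with cells assigned by their own scores (0.55) and with the wider surface (0.11), and superficial Nccrp1 lay below the mesenchymal level in chronic replicate 2 (8.42 against 10.001 CPM), which counts as background. Acute against chronic gave 3, 4 and 3 members in these layers, all lower in acute (28.7%, 28.9% and 30.5% of genes, of which 14.8%, 14.9% and 17.0% lower and 13.9%, 14.0% and 13.5% higher). In intermediate cells the chronic level of Sprr2f exceeded the healthy one by 2.04 ± 0.49 (log2, SE; 4.11-fold, edgeR adjusted p = 0.81) and that of Nccrp1 by 1.93 ± 0.53 (3.81-fold, edgeR adjusted p = 0.92). DESeq2 called both (adjusted p = 0.0038 and 0.049, against 0.446% of all genes), and edgeR called no member and 0% of genes in any layer for either injured group. Unadjusted p fell below 0.05 in edgeR for 1, 0 and 2 members in basal, intermediate and superficial cells for acute against healthy, and for 2, 2 and 1 members for chronic against healthy (2.32%, 2.46% and 4.11% of all genes for acute, and 4.44%, 4.78% and 4.55% for chronic). DESeq2 called no member in the other 5 of these 6 comparisons. The superficial fits tested 6 members, Tgm1 having too few UMIs.

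Sub-clusters were compared one by one. For Sprr2f, in all 15 sub-clusters that held every library, both chronic values lay above both healthy ones, and for acute against healthy this was so in 10 of 15 with 1 the other way round. In sub-clusters 0 and 15 the chronic values (99.1 and 78.9, and 78.7 and 79.8 CPM) lay below those of mesenchymal cells (107 and 117 CPM), and in sub-cluster 11 so did that of chronic replicate 2 (72.6 CPM). These count as background. Sprr2a3 followed in 13 of 15 sub-clusters for chronic against healthy, and Ivl was mixed, with 4 higher and 5 lower. The sub-clusters share their libraries and are not replicates.

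The gap between layers also differed between conditions for 1 member. Superficial cells held more Sprr2f than intermediate cells in healthy replicate 1 (difference of log2(CPM + 1) 0.94) and less in healthy replicate 2 (-0.98), and less in the acute (-2.36 and -2.05) and chronic libraries (-1.51 and -1.58). The superficial layer of healthy replicate 1 held 195 cells, and 28 when clustered without integration. The test of the interaction of layer and condition gave a change of -2.27 ± 0.35 on the log2 scale for acute against healthy (SE; edgeR adjusted p = 0.013), 1 of 7 members called against 0.0704% of 12776 genes. The call was lost without acute replicate 1 (-2.10, edgeR adjusted p = 0.13), without chronic replicate 2 (-2.27, 0.080), with clustering without integration (-0.82, 0.74) and with DESeq2 (-2.25, 0.73). For chronic against healthy the change was -1.64 ± 0.34 (edgeR adjusted p = 0.18), and no member passed (0.0235% of genes, 5 members at an unadjusted p below 0.05 against 5.41% of all genes, 0 with DESeq2). For Sprr2f 4 alternatives called this chronic change, and the estimate ran from -2.50 without healthy replicate 2 to -0.24 with cells assigned by their own scores.

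For the step from basal to intermediate cells no member passed the test of a changed gap, against 0.0156% of genes for acute and 0.0622% for chronic (edgeR, with 2 and 3 members at an unadjusted p below 0.05, against 4.52% and 5.48% of all genes, and 0 called by DESeq2). Of 15 alternatives each, 5 for acute and 7 for chronic called members, Sprr2a3 and Sprr2f for acute and Ivl, Sprr2a3, Krt23 and Sprr2f for chronic. The smallest unadjusted p was that of Ivl, whose intermediate against basal gap in log2(CPM + 1) was 1.13 and 1.04 in the healthy libraries and 0.76 and 0.26 in the chronic ones (change of -0.55 ± 0.13, edgeR adjusted p = 0.14). Sprr2a3 had a change of -0.97 ± 0.29 (edgeR adjusted p = 0.45), with gaps of 3.03 and 1.14 in the healthy and 1.00 and 0.96 in the chronic libraries. The gap of healthy replicate 1, where basal Sprr2a3 was lowest, was the largest of the 6.

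**Figure D5:**
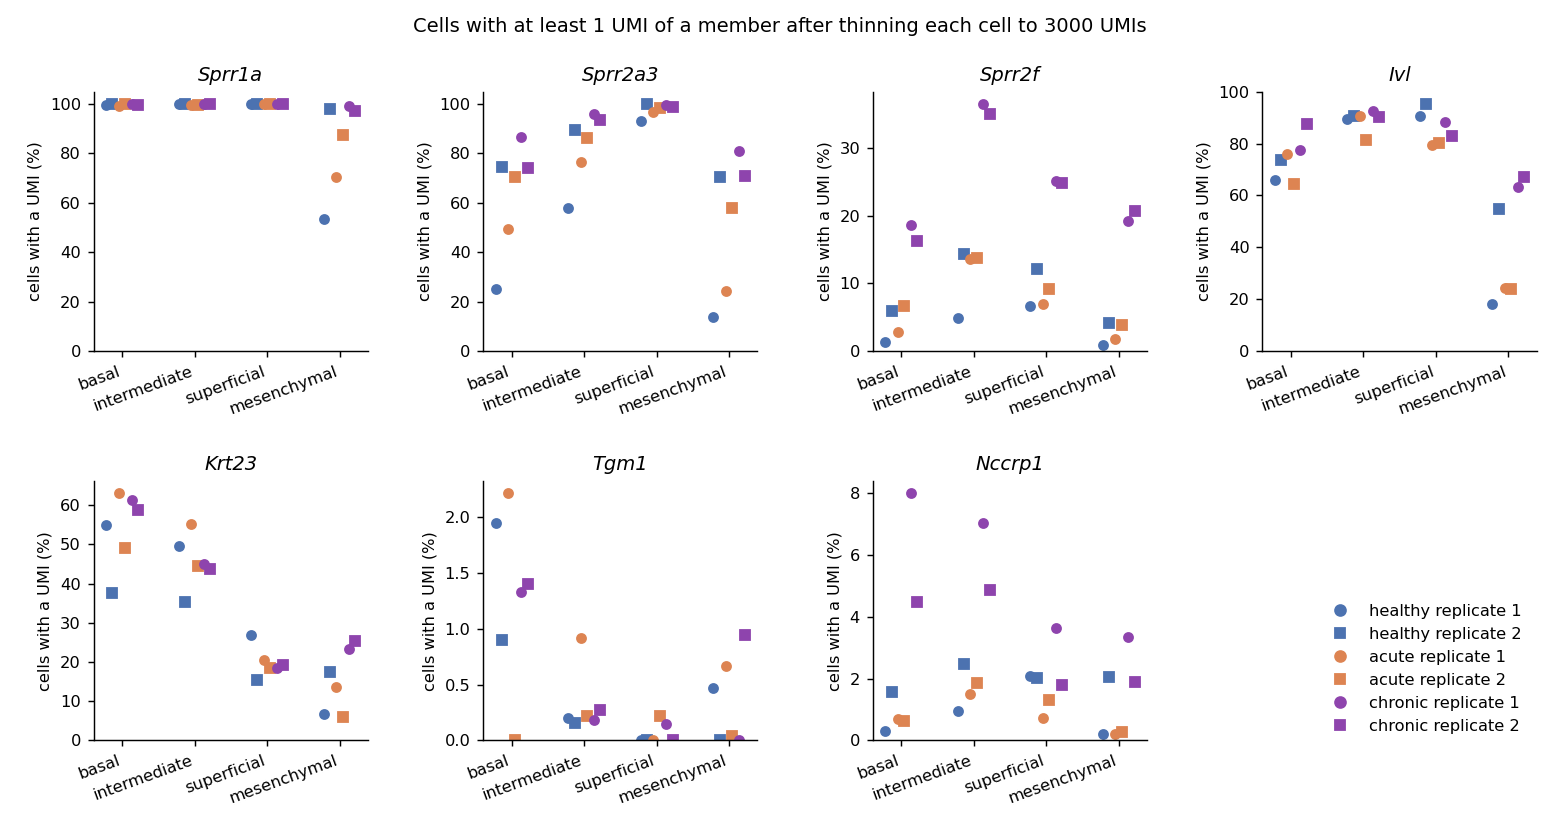
Share of cells with at least 1 UMI of each member after thinning every cell to 3000 UMIs (percent, y axis from 0), in the 3 layers and in mesenchymal cells, 1 point a library. Sprr2f reaches 36.5% and 35.0% of intermediate cells in the chronic libraries, where mesenchymal cells stand at 19.2% and 20.8%.

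The share of cells with a UMI shows whether a level comes from many cells or few. To compare depths, each cell was thinned to 3000 UMIs and shallower cells were left out (2 to 84 superficial, 31 to 316 basal, 181 to 1864 intermediate and 93 to 2083 mesenchymal cells a library). Median depth before thinning was 2801 to 4576 UMIs in basal, 3774 to 5633 in intermediate, 6751 to 11241 in superficial and 1983 to 3669 in mesenchymal cells. Sprr1a was found in 99.3% to 100% of the cells of every layer, and in 53.4% to 99.2% of mesenchymal cells. Its levels, not its shares, tell the layers apart.

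Sprr2f was found in 4.92% and 14.3% of intermediate cells in the healthy, 13.7% and 13.8% in the acute and 36.5% and 35.0% in the chronic libraries after thinning (7.38% to 42.9% before). Mesenchymal cells had 0.938% and 4.10%, 1.78% and 3.90%, and 19.2% and 20.8%. The intermediate share lay above the mesenchymal share in 6 of 6 libraries. In basal cells the shares were 1.35% and 5.96%, 2.90% and 6.63%, and 18.7% and 16.2%, and the chronic values were thus at or below the mesenchymal ones and count as background. In CPM, too, basal Sprr2f exceeded mesenchymal Sprr2f in 3 of 6 libraries only. Sprr2f counted in chronic basal cells is therefore not read as expression there. In superficial cells the share was 6.74% to 25.1% (mesenchymal 0.938% to 20.8%). Superficial Sprr2f stood above the mesenchymal CPM in 6 of 6 libraries, but by as little as 1.14 times.

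Krt23 was found in 37.6% to 63.0% of basal, 35.2% to 55.1% of intermediate and 15.4% to 26.9% of superficial cells after thinning, against 6.08% to 25.5% of mesenchymal cells. Before thinning the superficial share was 35.8% to 59.5%, since these cells are deeper. Superficial Krt23 stood above the mesenchymal CPM in 5 of 6 libraries. Ivl was found in 64.5% to 87.7% of basal, 81.4% to 92.5% of intermediate and 79.6% to 95.3% of superficial cells (mesenchymal 18.1% to 67.0%). Sprr2a3 was found in 25.0% to 86.7%, 57.8% to 95.8% and 93.3% to 100% of these cells (mesenchymal 13.6% to 80.8%). Nccrp1 was found in 0.939% to 7.05% of intermediate cells (mesenchymal 0.201% to 3.33%) and Tgm1 in 0% to 2.21% of basal cells (mesenchymal 0% to 0.943%), both rare transcripts at this depth.

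Cycling cells were kept out of the layer tests. In cycling basal cells Sprr1a was at 4411 to 8737 CPM, and it reached 14929.8 to 24393 CPM in the cycling superficial cells of the 4 acute and chronic libraries, the healthy ones having too few. The other cycling cells include sub-cluster 13, which carries superficial markers (mean z score 1.14, 96.9% cycling) and held 392 and 166 cells in the acute, 145 and 111 in the chronic and 16 and 9 in the healthy libraries, so that cycling and non-cycling intermediate cells are not compared. In sub-cluster 13 Sprr1a was at 12576 to 20586 CPM and Sprr2f at 33.1 to 107 CPM in the acute and chronic libraries. The Sprr2f value of chronic replicate 2 (89.1 CPM) lay below the mesenchymal level of that library and counts as background. That of chronic replicate 1 (107 CPM) was about level with mesenchymal cells. Tgm1 had 2.64 to 12.3 CPM in cycling basal cells. Their sums held 497842 and 565819 UMIs in the healthy and 174551 and 248269 in the chronic libraries. The Tgm1 levels of these libraries rest on few UMIs, close to the limit of detection.

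The other genes of the envelope, in lists of 102 genes of which 61 are in all 6 tables, moved in both directions between layers. From basal to intermediate cells 18 were higher and 19 lower of 57 tested (64.9%, against 42.0% of all genes; median log2 difference -0.02, against 0.00 over all genes), from intermediate to superficial cells 18 and 26 of 57 (77.2%, against 52.4%; median -0.11, all genes -0.03), and from basal to superficial cells 17 and 22 of 51 (76.5%, against 59.0%; median -0.17, all genes 0.01). All 3 other Sprr genes tested were higher at each step, with Sprr2a1 higher by 0.80 ± 0.10 from basal to intermediate cells, and Sprr2a2 by 1.65 ± 0.13 and Sprr2b by 1.57 ± 0.11 from intermediate to superficial cells. Sprr2a1 and Sprr2a2 share sequence with Sprr2a3, and their counts are uncertain for the same reason.

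The keratins of the list, which make the filaments of squamous cells, were split at the first step, with 3 higher and 4 lower of 7 tested from basal to intermediate cells (20.9% and 21.1% of all genes). All 7 were lower in superficial than in intermediate cells (28.0% of all genes), with Krt4 at -2.16 ± 0.13, and against basal cells 1 was higher and 5 lower (29.6% and 29.4%). Of the 16 regulators, 1 was higher and 10 lower in superficial than in intermediate cells (24.4% and 28.0% of all genes), among them the AP-1 subunit gene Fosl1 (-1.97 ± 0.09) and Klf4 (-1.51 ± 0.11), a zinc finger factor of the skin barrier. From basal to intermediate cells Zfp750 (1.01 ± 0.08) and Grhl3 (0.85 ± 0.06), both regulators of epidermal differentiation, and the skin protein gene Sbsn (0.93 ± 0.08) were higher, while Klf4 (-1.76 ± 0.05), S100a10 (-1.37 ± 0.09), Fosl1 (-1.21 ± 0.06) and Cebpb (-1.08 ± 0.05) were lower. Cst6, an inhibitor of envelope proteases, and Cers3, a ceramide synthase of the lipid envelope, were higher in superficial than in intermediate cells (1.44 ± 0.10 and 1.34 ± 0.09), and against basal cells Sprr2b (4.05 ± 0.16) and Cst6 (4.01 ± 0.21) had the largest differences among listed genes of at least 20 CPM, with Klf4 (-3.27 ± 0.12), Krt4 (-3.21 ± 0.14) and Fosl1 (-3.19 ± 0.11) at the other end. All values in this paragraph are edgeR log2 differences with their SE and passed the test. Between conditions edgeR called none of the 59 listed genes tested over all urothelial cells, with 6, 8 and 8 at an unadjusted p below 0.05 for acute against healthy, chronic against healthy and acute against chronic, and DESeq2 called 0, 2 and 2 (6.48%, 7.36% and 6.52% of all genes at that unadjusted p, and 1.92%, 0.928% and 0.439% with DESeq2). The 2 were Sprr2b and Sprr2a2 in both cases, named here after their values were seen.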

How the data were processed

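The single-cell 3' RNA libraries (10x Genomics) of bladder mucosa were deposited as count tables (unnormalized UMI counts, genes by cells), which the authors made with Cell Ranger (mm10, per the labels) and filtered on cells. The last line of the table of healthy replicate 1 is cut short, and 2 tables list no rare genes, so genes in all 6 tables (14450) were used, 14338 of them neither mitochondrial nor ribosomal. The authors' limits (more than 500 genes, less than 10% of UMIs mitochondrial) were applied to each cell, doublets were called with scrublet's scores in scanpy 1.11.5 at 0.8% per 1000 cells (4.28% to 11.1% a library) and removed with 1 cluster rich in them, and libraries were integrated with Seurat 5.3.0 on 3000 genes without the members or the cornified-envelope lists.

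Basal cells have a basal marker score above the luminal one, superficial cells are those of sub-clusters whose mean superficial z score exceeds 1 and that are not mostly (over 50%) cycling, and the rest are intermediate. Cycling cells were kept out of the layers. UMIs were summed per library and class (at least 20 cells) and tested with edgeR 4.0.16 (quasi-likelihood, TMM, filterByExpr, Benjamini-Hochberg over all genes tested, threshold 0.05), with the library as a block between layers and all 6 libraries in one fit between conditions. Intervals are 95% normal intervals of the fitted difference. They take no account of the small number of libraries and can be narrower than the test itself would give. For Sprr2a3 in acute against healthy urothelial cells the interval, 0.10 to 1.29, lies wholly on the positive side. The unadjusted edgeR p there was 0.054. DESeq2 1.42.0 and the alternatives of the closing section were also run. The fits were also tried on simulated counts, drawn independently for each gene and library without a library or batch effect. The changed genes were picked at random from all genes tested. There edgeR recovered 88% of genes changed 2-fold between intermediate and basal cells. Recovery at the level of each member was not tested. Where 2 libraries make a group, the labels pair nothing by the numbers 1 and 2, and the batch of each library is not known.

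The members and gene lists were chosen with earlier results of these data known. All 7 members are named in every comparison. Of the lists, the genes with adjusted p below 0.05 and a mean of at least 20 CPM are named, at most the 4 largest on each side, and for each member the 3 genes of at least 20 CPM with the highest correlation over layers and libraries. A gene that these rules select is in some cases not reported here. Coordinates and coding sequences come from GENCODE vM21 (GRCm38), and promoters from RefSeq (GRCm38.p6), which matched 6 of 7 members.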

Additional observations from a re-analysis of the deposited data

Results flagged for a closer look

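The difference of Sprr2f between superficial and intermediate cells changed between acute and healthy libraries by -2.27 on the log2 scale (edgeR adjusted p = 0.013), a tested difference between groups with 2 libraries each. Without integration of the libraries, the superficial cells of healthy replicate 1 numbered 28 in place of 195. The estimate was -2.25 with DESeq2, which did not call it (adjusted p = 0.73), and -0.82 with clustering without integration (edgeR adjusted p = 0.74), and over all alternatives the estimate ran from -3.15 (without healthy replicate 2) to -0.44 (cells assigned by their own marker scores) and the adjusted p from 7.4e-13 to 0.74. The call was also lost without acute replicate 1 (-2.10, edgeR adjusted p = 0.13) and without chronic replicate 2 (-2.27, adjusted p = 0.080).

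For Nccrp1 the superficial against basal difference was above 0 in both healthy libraries (1.86 and 0.11) and below 0 in both chronic ones (-1.17 and -0.85). The chronic mean less the healthy mean was -1.998 on the log2(CPM + 1) scale, and this difference between groups was not tested. Acute libraries had 0.22 and 0.82. Superficial Nccrp1 of chronic replicate 2 (8.42 CPM) lay below the mesenchymal level of that library (10.001 CPM), and the part of free RNA was not tested.

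Ivl stood on opposite sides in different layers in chronic against healthy libraries. In basal cells both chronic values (622 and 836 CPM) exceeded both healthy ones (537 and 529 CPM), and in superficial cells both (819 and 741 CPM) lay below them (1081 and 1336 CPM). The superficial change lay 1.08 below the basal change (-1.08 on the log2 scale), and that difference was not tested. Mesenchymal Ivl was also higher in the chronic (272 and 409 CPM) than in the healthy libraries (92.8 and 269.8 CPM), and the part of free RNA in the basal values was not tested. No test for a single library far from the others was run, since each group had 2.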

How the results depend on the processing

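Counts of members called kept within 1.5 times the count reported under 207 of 234 alternatives. In the comparisons of conditions that count was 0, and edgeR called at most 1 gene of all. A count that stayed 0 there says little about robustness. For the changes of gaps between layers the count kept under 10 and 8 of 15 alternatives (intermediate against basal, acute then chronic). For superficial against intermediate cells it kept under 9 and 10 of 15. DESeq2 moved 3 counts from 0, to 1 for chronic against healthy and 1 for acute against chronic over all urothelial cells, and to 2 for chronic against healthy in intermediate cells. Without the library block, 3 members were called between intermediate and basal cells in place of 6 (Krt23, Tgm1 and Nccrp1 were lost). Counts for the change of a gap between layers were less stable. For intermediate against basal cells the acute count of 0 became 1 with no filter and ran from 0 to 2 with a library left out, and the chronic count of 0 became 2 with no filter and 1 with scores of single cells and ran from 0 to 2. For superficial against intermediate cells the acute count of 1 became 0 with DESeq2, 0 without integration, 3 with scores of single cells and 2 with the wider surface and ran from 0 to 1 (0 without acute replicate 1 or chronic replicate 2). The chronic count of 0 became 1 with no filter, 2 with stricter cells, 2 with scores of single cells and 2 with the wider surface and ran from 0 to 2. The causes were not tested. Over all genes, DESeq2 called 275 genes for acute against healthy, 133 for chronic against healthy and 63 for acute against chronic over all urothelial cells, where edgeR called 1, 0 and 0. Within basal, intermediate and superficial cells DESeq2 called 9, 19 and 3 genes for acute and 9, 64 and 5 for chronic against healthy, and edgeR 0 in each. For the changes of gaps between layers DESeq2 called 0 and 4 genes for acute and 1 and 1 for chronic (intermediate against basal, then superficial against intermediate), and edgeR 2 and 9, then 8 and 3.

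The numbers of replicates pair nothing in the labels. Deviations of replicate 1 from its group mean correlated at r = 0.39 between healthy and acute (6027 genes). The r was -0.50 between healthy and chronic and -0.29 between acute and chronic. With 2 libraries a group, replicate 2 deviates by the reverse of replicate 1. A negative r thus means that libraries of opposite numbers deviated together. Healthy replicate 1 and acute replicate 1 each did so with chronic replicate 2. Clustered without integration, healthy replicate 1 and acute replicate 1 shared clusters (1547 and 512 cells, and 536 and 996 cells). Whether a batch lies behind this was not tested. The replicate block groups libraries by number, which goes against the signs of r for the chronic libraries. With a replicate block the change of the intermediate against basal gap called 1 member for acute and 2 for chronic (0 without the block; 19 and 31 genes in all, against 2 and 8), and the block moved no other count of members.

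Of 686 alternatives for single members, 640 kept direction and side of the threshold, 13 lost a call, 12 gained one and 21 changed sign, all 21 of differences that were not called. A difference that was not called and stayed so, with its sign, is counted as kept. For acute against healthy over all urothelial cells, leaving out 1 library gave -0.15 (without healthy replicate 2) to 0.51 for Krt23, -0.97 to 0.49 (without healthy replicate 2) for Nccrp1, and -0.70 (without acute replicate 1) to 1.89 for Tgm1. For chronic against healthy, Krt23 came to 0.016 with stricter cells and to -0.31 to 0.32 with 1 library left out (0.32 without healthy replicate 1, 0.14 without chronic replicate 2), and Tgm1 to -0.34 to 0.43 (-0.15 without healthy replicate 2, -0.34 without chronic replicate 2). Sprr1a between intermediate and basal cells came to -0.0017 with RLE factors, -0.0016 with DESeq2, -0.037 to 0.041 with 1 library left out (-0.037 without healthy replicate 1, -0.0022 without acute replicate 1, -0.01 without chronic replicate 1), -0.047 with the wider surface and -0.0025 without the library block, but to 0.36 with scores of single cells (edgeR adjusted p = 1.8e-05). Nccrp1 between superficial and basal cells came to -0.12 (without healthy replicate 1) to 0.48 with 1 library left out, and to -0.01 without acute replicate 2 and -0.11 without integration. Sprr2f for acute against healthy in superficial cells (-0.91) came to 0.25 without integration, 0.55 with scores of single cells and 0.11 with the wider surface. With scores of single cells the superficial against intermediate differences shrank for every called member, to 0.46 for Sprr1a, 0.31 for Sprr2a3, -0.18 for Sprr2f, -0.18 for Krt23 and -0.40 for Nccrp1. The wider surface, which counts the next sub-cluster below the threshold as superficial (1.98% to 5.97% of urothelial cells), was added after the data were seen.

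Depth limits Tgm1, which had 0 to 5 UMIs a library in superficial cells. With 2 libraries a condition, edgeR recovered 10% of simulated 2-fold changes between chronic and healthy libraries, and DESeq2 28% but with 36 of the unchanged genes called (edgeR 6).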

Other observations

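Members were also counted in the rarer cell types of the same libraries, whose sums rest on few cells. In macrophages (56 to 266 cells a library) Sprr1a was at 1202 to 3610.1 CPM and Sprr2f at 3.09 and 35.6 CPM in the healthy, 4.04 and 22.5 in the acute and 71.7 and 68.8 CPM in the chronic libraries, below the urothelial level of the same library in 6 of 6 libraries. The macrophage values of Sprr2f overlapped between healthy and acute libraries. Nccrp1 was at 40.5 CPM in the macrophages of chronic replicate 1 (13 UMIs), above its urothelial 27.0 CPM. Sprr2f reached 444 CPM (54 UMIs in 27 cells) in the endothelial cells of chronic replicate 2, above the 313 CPM of that library's urothelial cells, and 69.4 CPM (5 UMIs in 27 cells) in those of chronic replicate 1.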
